A study of Mus musculus with 6 samples.

Results

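The genes described here encode the matrix metalloproteinases (MMPs), the ADAM and ADAMTS metalloproteinases, the ADAMTS-like proteins and the tissue inhibitors of metalloproteinases (TIMPs). They were taken by symbol from a table of 19353 genes, and 62 rows matched: 18 MMP, 19 ADAM, 16 ADAMTS, 5 ADAMTS-like (Adamtsl) and 4 Timp genes. Of these, 46 had a mean of at least 10 counts over the 6 libraries and 16 did not. The study measured polyadenylated RNA of mesenchymal stem cells purified from wild-type mouse bone marrow. All 6 samples were driven towards bone-forming cells with dexamethasone (100 nM), β-glycerophosphate (10 mM) and ascorbic acid (50 µM). MCH, the neuropeptide melanin-concentrating hormone, was added at 0.5 µM to 3 samples, and the other 3 are the Control group. RNA was taken on day 9 of induction by the titles and on day 8 by the design text. Neither age nor strain is labelled, and nothing states that replicates are separate mice or dishes, so the p-values cover only the spread among these libraries, possibly a technical one. The Control columns of the table do not name their group and were taken as Control because their names hold no MCH, so every direction given here rests on those names.

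MMPs and ADAMTS enzymes are zinc-dependent endopeptidases that cut collagens, proteoglycans and other matrix proteins outside the cell, and most are made as inactive precursors. ADAMs are mostly membrane-bound and release the outer parts of growth factors, receptors and adhesion proteins. TIMPs bind the active site of these enzymes and block it. In bone, matrix cleavage by such enzymes accompanies both the laying down and the removal of collagen. RNA levels alone were measured here, not the activation or activity of the enzymes.

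The libraries held 16521980 to 18803949 counted reads. Members took 0.303% to 0.305% of them in MCH libraries and 0.319% to 0.321% in Control libraries. The mesenchymal label was checked against 10 stromal marker genes: all 10 passed the filter on low counts, and 6 were lower with MCH. The 6 were Nt5e, Ly6a, Pdgfra, Pdgfrb, Col1a1 and Col1a2, while Thy1, Eng, Runx2 and Lepr did not pass. Passing the filter is a weak check of the label. Lepr passed it at means of 0.576 CPM with MCH and 0.946 CPM in Control, and Thy1 at 2.55 and 2.98 CPM. The summed level of the 10 genes was 8384 to 9096 CPM with MCH and 12170 to 13030 CPM in Control. Most of it came from Col1a1 (means of 3813 CPM with MCH and 5172 CPM in Control) and Col1a2 (4119 and 5912 CPM). The part of this shift in the values below was not tested. CPM are read counts relative to the TMM-scaled library total. Of 10 macrophage genes, 4 were tested and none passed by edgeR, with 1 higher at an unadjusted p under 0.05 and 1 higher after adjustment by DESeq2. The summed macrophage level ran from 47.8 to 83.1 CPM with MCH and from 38.0 to 45.4 CPM in Control. Most of this sum came from Cd68, at a mean of 45.9 CPM for MCH libraries and 33.1 CPM for Control libraries. Cd68 reached 690 to 934 counts per MCH library and 549 to 606 per Control library. It was the gene higher by edgeR before adjustment (0.47 ± 0.13, adjusted p = 0.0655). Csf1r had 43 to 95 counts per library and did not pass. The pan-leukocyte gene Ptprc had 0 to 2 counts in every library, and Adgre1 had 50 counts in MCH replicate 3 against 0 to 11 elsewhere. Of 7 granulocyte genes 3 were tested, and of 4 endothelial genes 2, and none of these passed by edgeR, DESeq2 or limma-voom. Of 4 lymphocyte genes, Cd3e alone was higher (2.93 CPM in Control, 8.09 CPM with MCH), while Cd79a had 0 to 2 counts. Both tested chondrocyte genes were lower, Acan (-0.69 ± 0.15) and Sox9 (-0.39 ± 0.08, adjusted p = 0.0307), and Col2a1 had 1 to 11 counts and Col10a1 0 to 2. The summed chondrocyte level was 30.8 to 36.1 CPM with MCH and 44.6 to 47.0 CPM in Control, and its part in the protease values was not tested. In RNA from a whole culture, fewer cells of a type and less RNA per cell cannot be told apart.

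With MCH, many matrix proteases were lower, and none of the 3 tested Timp genes passed the test. The filter on low counts kept 46 members, which are those with a mean of at least 10 counts except that Mmp15 (mean 9) was kept and Adam5 was not. Of these 46, 14 fell and 1 rose. The test was edgeR's quasi-likelihood test, with Benjamini-Hochberg adjusted p under 0.05 over all 13662 genes tested, of which 9.04% passed. The 14 and the 1 are 30.4% and 2.17% of the tested members, where 5.4% of all tested genes were lower and 3.64% were higher. The members were chosen with earlier results of these data known, so these shares are descriptions. The 14 that fell were 8 of 15 MMPs, 5 of 13 ADAMTS genes and 1 of 11 ADAMs. Among the 5 ADAMTS genes, Adamts3 passed the filter on low counts only through the Control libraries, where its level was higher. The 1 that rose was Adamts5. None of the 3 tested Timp genes and none of the 4 tested Adamtsl genes passed in either direction by edgeR, DESeq2 or limma-voom. At an unadjusted p under 0.05 the Timp count was also 0, and 2 Adamtsl genes were lower, by each of the 3 tools. With 9.04% of all tested genes passing, the lack of calls among so few genes is no contrast with the proteases. Changes are given as log2 fold changes, MCH minus Control, with their SE. Their median was -0.38 over the tested members and 0.00211 over all tested genes. In 23 tested members all 3 MCH libraries lay below all 3 Control libraries, and in 3 members above them, against 16.6% and 16.1% of all tested genes.

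**Figure D1:**
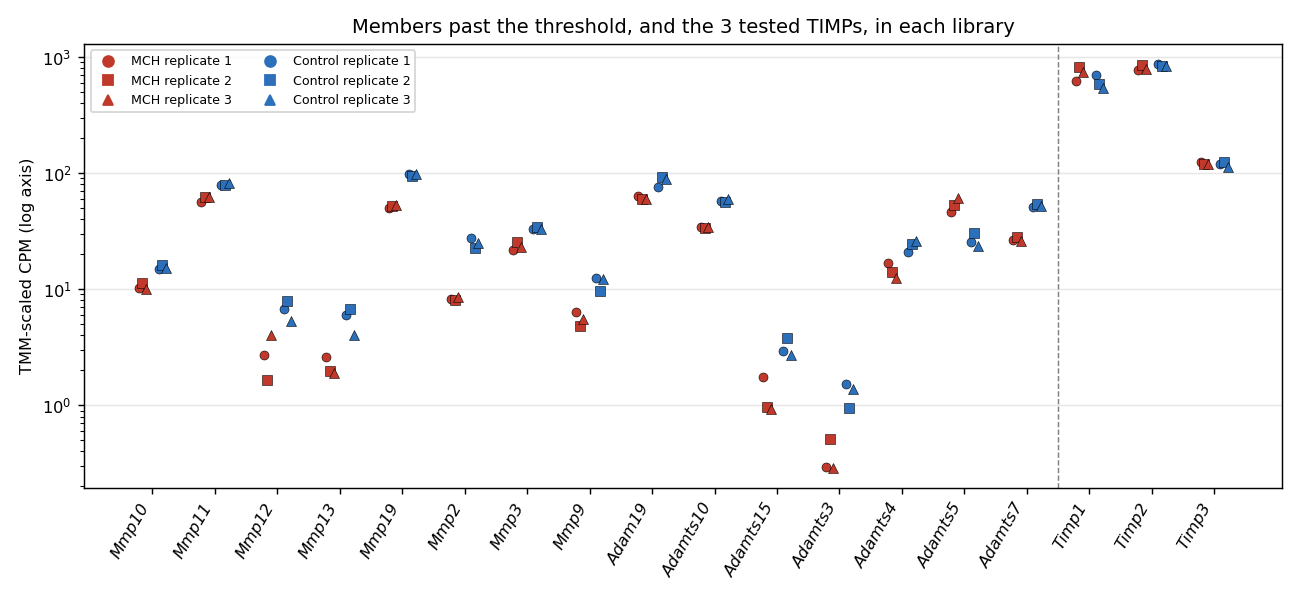
TMM-scaled CPM (log axis) of the 15 members past the threshold and the 3 tested Timp genes, 1 point per library, red for MCH and blue for Control. For each of the 15 the groups do not overlap, with the MCH points below Control except for Adamts5, and for the 3 Timp genes they overlap.

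Among the secreted collagenases, gelatinases and stromelysins, all 6 tested members fell: Mmp2, Mmp3, Mmp9, Mmp10, Mmp11 and Mmp13. Mmp2, the gelatinase that also cuts type IV collagen, stood at 8.21, 8.13 and 8.53 CPM in MCH replicates 1 to 3 and 27.6, 22.8 and 24.9 CPM in Control replicates 1 to 3. The MCH libraries lay within 1 CPM of each other, and each was below the lowest Control library. Mmp2 fell by 1.60 ± 0.11 log2 units (adjusted p = 0.000374), a level 3.03-fold lower. Mmp9, the other gelatinase, is made in bone above all by osteoclasts and other myeloid cells. It stood at 6.40, 4.85 and 5.51 CPM with MCH against 12.4, 9.63 and 12.1 CPM in Control, and fell by 1.02 ± 0.16 log2 units (adjusted p = 0.0111). Its groups did not overlap. The osteoclast genes Acp5, Atp6v0d2 and Ocstamp had at most 29 counts in any library and Ctsk 18 to 25, and the part of such cells in the Mmp9 value was not tested. The Mmp9 call was lost without MCH replicate 3 or Control replicate 3 (highest adjusted p = 0.0536), while the Mmp2 call was kept in all 6 fits with 1 library left out.

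Mmp13, the main interstitial collagenase of mouse bone and cartilage, was a low transcript here. It stood at 2.58, 1.98 and 1.91 CPM with MCH against 5.96, 6.70 and 4.01 CPM in Control. Control replicate 3 was the lowest of its group and still lay above the highest MCH library. Mmp13 fell by 1.36 ± 0.24 log2 units (adjusted p = 0.0164). The stromelysins Mmp3 and Mmp10 cleave many matrix proteins and activate other MMP precursors. Mmp3 was measured at 21.6, 25.6 and 23.3 CPM with MCH against 33.0, 34.5 and 32.7 CPM in Control, and fell by 0.51 ± 0.09 log2 units (adjusted p = 0.0152). Mmp10 was measured at 10.3, 11.3 and 10.0 CPM with MCH against 14.8, 16.1 and 15.2 CPM in Control, and fell by 0.54 ± 0.11 log2 units (adjusted p = 0.0228). In both genes the MCH libraries stayed under every Control library. Mmp11, called stromelysin 3 although it cuts few matrix proteins, had the highest FPKM of the 6. It stood at 55.8, 62.4 and 61.8 CPM with MCH against 78.8, 78.3 and 81.6 CPM in Control, and fell by 0.41 ± 0.07 log2 units (adjusted p = 0.0151). The Mmp3, Mmp10 and Mmp11 calls were each lost when MCH replicate 3 or Control replicate 2 or 3 was left out (highest adjusted p = 0.0712, 0.0927 and 0.0630). The Mmp13 call was lost when MCH replicate 2 or 3 or Control replicate 2 was left out (highest adjusted p = 0.0727).

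Mmp13, Mmp12, Mmp3 and Mmp10 are neighbours on chromosome 9 (GRCm38, plus strand), at 7272514-7283333, 7344381-7369499, 7445822-7455972 and 7502352-7510238. The gaps between them are 61047, 76322 and 46379 bases, and no other gene of the table lies in these gaps. Genes without a count there were not considered, such as Mmp1b, which shares 2.17% of the exon bases of Mmp12 on the opposite strand. All 4 genes fell. Mmp7, the next member on the chromosome at 7692090-7699585, had 0 to 4 counts in every library. Mmp12, the macrophage elastase, stood at 2.70, 1.64 and 4.003 CPM with MCH against 6.76, 7.95 and 5.28 CPM in Control, and fell by 1.26 ± 0.32 log2 units (adjusted p = 0.0499). MCH replicate 3, the library with the most Adgre1 reads, was its highest MCH library, and the part of macrophages in the value was not tested. The Mmp12 call was lost in each fit without MCH replicate 1, MCH replicate 2 or any Control replicate (highest adjusted p = 0.15). It also missed the threshold with upper-quartile scaling, with the length trend removed and with a filter of 10 mean counts (adjusted p = 0.0502, 0.0509 and 0.0506).

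These neighbours also share promoter letters, which is why their sequences are shown. RefSeq promoter windows (GRCm38.p6, 250 bases before to 50 after each start site) were matched by symbol for 37 of the 62 members, among them 28 that were tested. The windows were searched for the AP-1 motif TGAGTCA on both strands and for the TATA box letters TATAAA on the gene strand. AP-1, the dimer of FOS and JUN proteins, is a known regulator of several MMP genes. The stretches below lie directly before the RefSeq start site, which for Mmp12 and Mmp10 is not the table's start, for Mmp13 (chr9:7272414-7272513), Mmp12 (chr9:7347274-7347373), Mmp3 (chr9:7445722-7445821), Mmp10 (chr9:7502242-7502341) and Mmp7 (chr9:7691990-7692089). The stretch for Adam19 (chr11:46055834-46055933), a gene described further on, begins 150 bases before its start. All are on the plus strand and 100 bases long, with AP-1 and TATA box letters in capitals; in Mmp13 the AP-1 motif is on the other strand and reads TGACTCA.
Mmp13: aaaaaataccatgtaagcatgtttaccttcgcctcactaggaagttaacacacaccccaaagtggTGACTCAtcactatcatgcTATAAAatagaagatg
Mmp12: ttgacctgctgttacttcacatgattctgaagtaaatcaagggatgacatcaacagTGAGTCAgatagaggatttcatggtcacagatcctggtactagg
Mmp3: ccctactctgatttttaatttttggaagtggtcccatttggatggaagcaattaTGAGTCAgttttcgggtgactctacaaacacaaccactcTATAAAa
Mmp10: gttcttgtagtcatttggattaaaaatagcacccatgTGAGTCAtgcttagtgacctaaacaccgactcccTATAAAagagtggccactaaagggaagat
Mmp7: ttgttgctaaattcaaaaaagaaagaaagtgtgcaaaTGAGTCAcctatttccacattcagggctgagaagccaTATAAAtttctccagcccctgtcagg
Adam19: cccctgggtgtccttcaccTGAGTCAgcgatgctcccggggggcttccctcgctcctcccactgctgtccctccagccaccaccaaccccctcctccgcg

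All 4 neighbours that fell, and Mmp7, held both an AP-1 match and a TATA box match. In Mmp12 this was the second of its 2 RefSeq windows, and its TATA box letters lie 5 to 10 bases after the start and so outside the stretch shown. The AP-1 match began 35 bases before the start in Mmp13, 44 in Mmp12, 46 in Mmp3 and 63 in both Mmp10 and Mmp7. Of the 28 tested members with a window, 5 held an AP-1 match, and all 5 fell: Mmp3, Mmp10, Mmp12, Mmp13 and Adam19. Of the 23 without a match, 2 fell, Mmp11 and Adamts3, the last tested because of the Control libraries. None of the 5 with a match passed when Control replicate 2 was left out (adjusted p between 0.0634 and 0.15). Over all windows, 5.2% of 32851 held an AP-1 match and 8.32% a TATA box match. Among all tested genes with a window, an AP-1 match was present for 8.08% of 520 genes lower with MCH, 1.65% of 363 higher genes and 4.7% of 9038 others. The motif of RUNX factors, TGTGGT on both strands, was held by 16.8% of all windows, and among members by those of Adam15, Adam19, Adam1a, Adam21, Mmp7, Mmp13, Mmp14 and Mmp23. Such matches describe letters and not binding, and the 4 neighbouring genes are related copies, so their matches are not independent. No window was matched for Mmp2, Mmp9, Mmp19, Adamts4, Adamts5, Adamts7, Adamts10 and Adamts15.

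**Figure D2:**
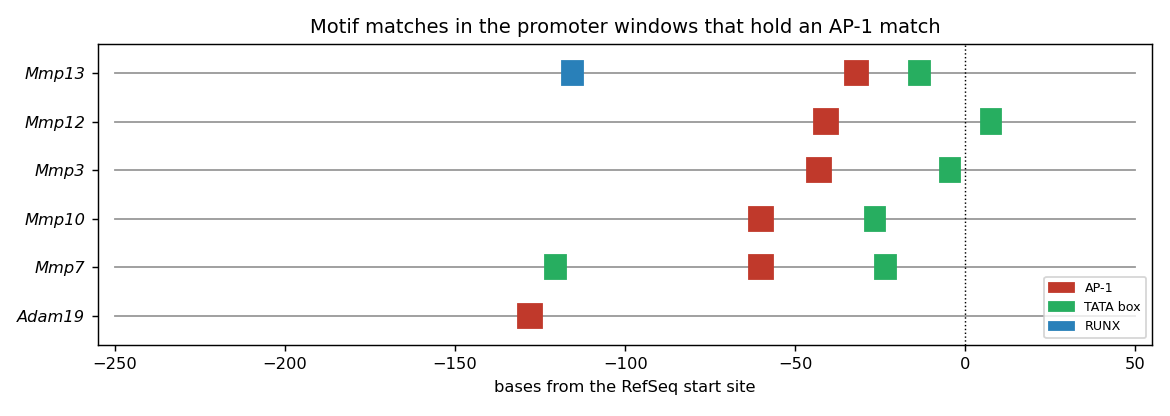
Positions of AP-1 (red), TATA box (green) and RUNX (blue) matches in the 6 member windows that hold an AP-1 match, in bases from the RefSeq start site, each grey line being 1 window. In Mmp13, Mmp12, Mmp3, Mmp10 and Mmp7 an AP-1 match lies between 63 and 29 bases before the start.

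Of the other MMPs, Mmp19, a broad-range secreted enzyme, varied little within groups. It stood at 50.3, 52.0 and 53.4 CPM in MCH replicates 1 to 3 and 98.5, 95.0 and 97.7 CPM in Control replicates 1 to 3. Both groups spanned only a few CPM and lay far apart. Mmp19 fell by 0.90 ± 0.06 log2 units (adjusted p = 0.000397), and the call was kept in all 6 fits with 1 library left out. Of its annotated exon bases, 22.3% also belong to Tmem198b on the opposite strand, and since the strand setting of the counting is not given, reads of the pair cannot be told apart. Mmp28, also called epilysin, was lower in every MCH library (8.92, 4.91 and 8.70 CPM with MCH against 12.5, 15.0 and 12.1 CPM in Control) but did not pass (-0.81 ± 0.23, adjusted p = 0.0688). It passed with DESeq2 (adjusted p = 0.0168). Mmp23 overlapped between groups (-0.11 ± 0.11, adjusted p = 0.570). Mmp21 and Mmp25 had 0 to 4 counts per library, as did Mmp7.

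The membrane-type MMPs are anchored at the cell surface. None of the 5 tested members passed, by edgeR, DESeq2 or limma-voom, and at an unadjusted p under 0.05 edgeR had 1 lower and 1 higher. Mmp14, which cuts fibrillar collagen and, with TIMP2, activates the precursor of MMP2, was the most abundant MMP per length. It stood at 145, 132 and 149 CPM in MCH replicates 1 to 3 and 176, 185 and 155 CPM in Control replicates 1 to 3. All MCH libraries lay below all Control libraries, and the difference did not reach the threshold (-0.27 ± 0.08, adjusted p = 0.0812). Mmp16 and Mmp17 had all MCH libraries above all Control libraries without passing (0.37 ± 0.16, adjusted p = 0.188; 0.43 ± 0.17, adjusted p = 0.163). Mmp24 (0.39 ± 0.35, adjusted p = 0.523) and the very low Mmp15 (-1.10 ± 0.59, adjusted p = 0.275) did not pass either. Mmp15 had 1, 8 and 8 counts with MCH against 15, 12 and 10 in Control, so it was tested because of the Control libraries.

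**Figure D3:**
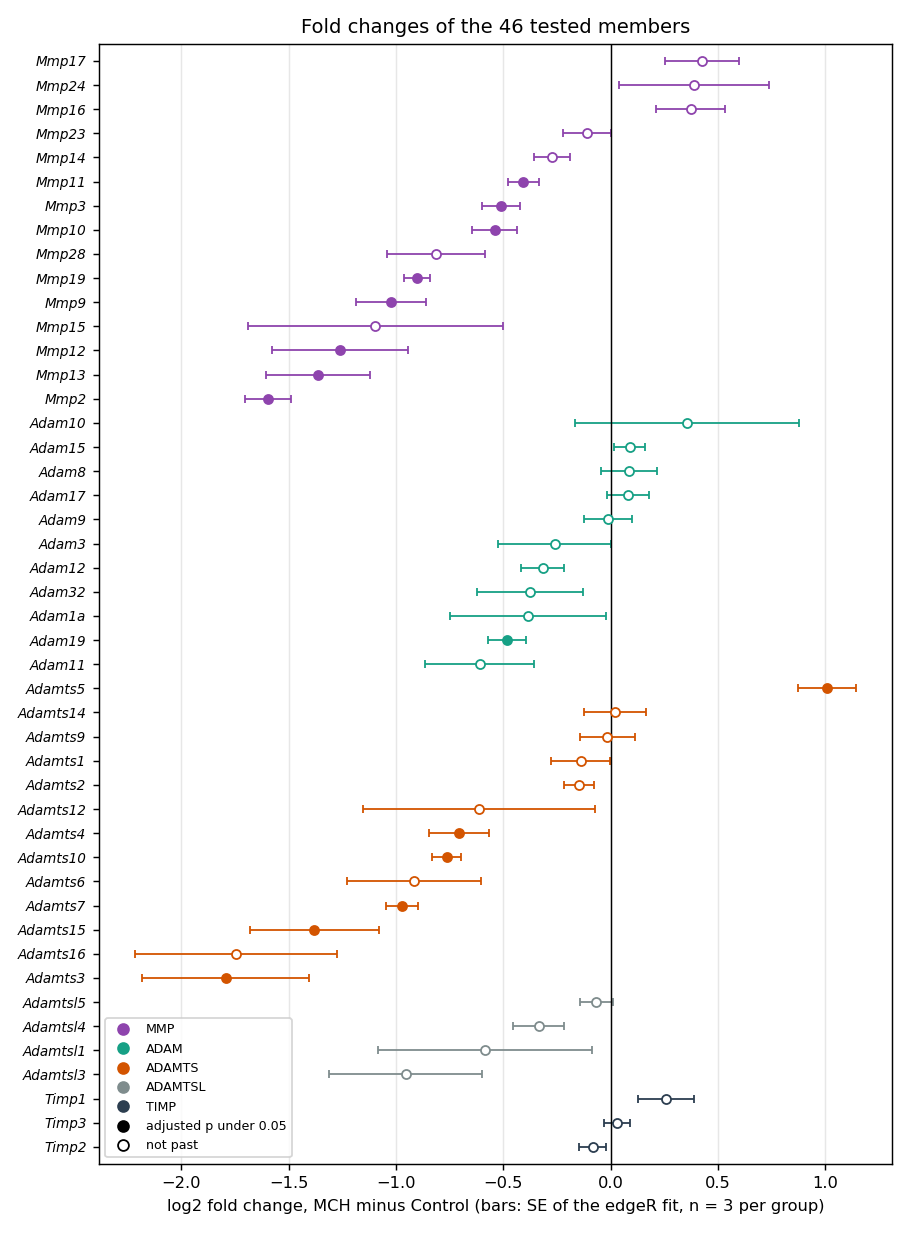
Log2 fold change (MCH minus Control, bars are SE) of the 46 tested members, grouped by family, with filled points for adjusted p under 0.05. MMP and ADAMTS points reach from below -1.5 to 1.01, while the 3 Timp points lie between -0.08 and 0.26.

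Timp1 and Timp2 had the highest FPKM of all members. On the deposited FPKM scale, which corrects for gene length, their means were 480.0 and 200.9 over the 6 libraries. The next were the sheddase gene Adam9 at 31.3, Mmp14 at 27.2, Mmp19 at 21.8, Adam15 at 20.5, Mmp11 at 17.3, Mmp3 at 15.8, Adamts1 at 14.2 and Timp3 at 13.3. Timp1, an inhibitor with many MMP targets, stood at 615, 816 and 743 CPM with MCH against 698, 583 and 541 CPM in Control. Its groups overlapped, with MCH replicate 1 below the highest Control library (0.26 ± 0.13, adjusted p = 0.260). Timp2, which takes part in MMP2 activation beside its inhibitory role, stood at 763, 842 and 792 CPM with MCH against 864, 839.8 and 838 CPM in Control. These ranges overlapped as well (-0.08 ± 0.06, adjusted p = 0.444). Timp3, which binds to the matrix and also inhibits ADAM17 and ADAMTS4 and ADAMTS5, stood at 124, 119 and 119.9 CPM with MCH against 119, 124 and 113 CPM in Control. It had a narrow spread and no separation of the groups (0.03 ± 0.06, adjusted p = 0.798). Timp4 had 4, 2 and 8 counts with MCH against 2, 15 and 5 counts in Control and was not tested. A missing call does not show equal levels. Timp3 shares 21.3% of its exon bases with Syn3 on the opposite strand.

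Summed MMP levels were lower in every MCH library than in any Control library, while summed Timp levels overlapped. Summed over all 18 rows, MMP genes gave 352, 351 and 369 CPM with MCH and 509, 509.5 and 482 CPM in Control. Summed Timp levels were 1502, 1777 and 1656 CPM with MCH and 1682, 1548 and 1492 CPM in Control. The ratio of summed Timp to summed MMP CPM was 4.61 ± 0.413 with MCH and 3.15 ± 0.141 in Control (SD, n = 3), with no overlap. On the FPKM scale the same ratio was 8.17 ± 0.821 and 5.03 ± 0.386. The ratio of Timp2 to Mmp2 CPM was 96.5 ± 6.22 with MCH and 33.9 ± 2.76 in Control. These sums are descriptions and were not tested. Within the MMP sum on the FPKM scale, Mmp14 made up 27.5% with MCH and 22.7% in Control, Mmp19 17.0% and 21.8%, and Mmp2 3.05% and 6.32%. Summed ADAM levels were 579 to 684 CPM with MCH and 603 to 687.5 CPM in Control. Summed ADAMTS levels were 341 to 379.9 CPM with MCH and 399.8 to 437 CPM in Control, but on the FPKM scale they overlapped, at 40.2 to 47.8 and 46.9 to 53.6.

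**Figure D4:**
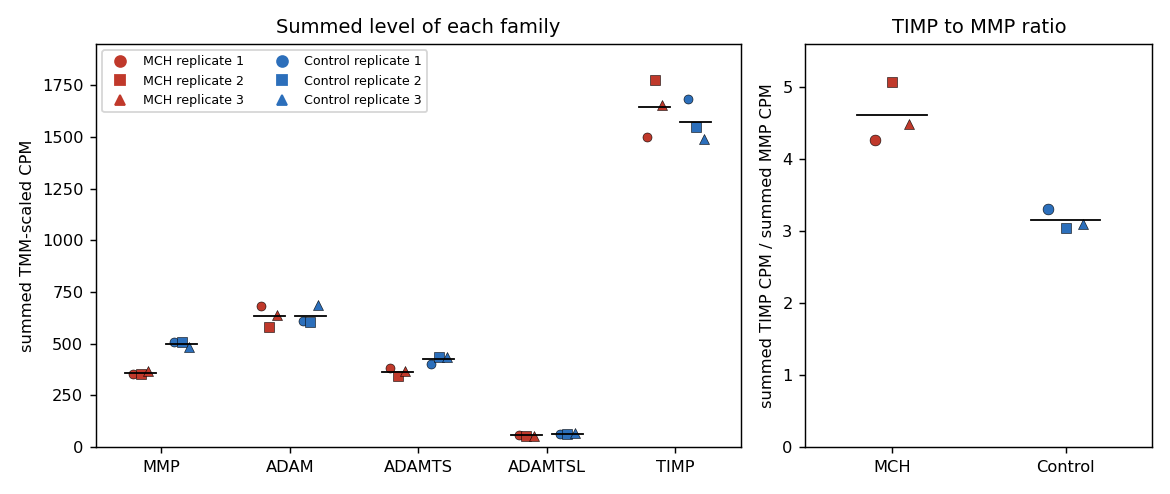
Summed TMM-scaled CPM of each family per library (left, axis from 0) and the ratio of summed Timp to summed MMP CPM (right), with black bars for group means. MMP sums lie at 351 to 369 with MCH and at 482 to 509.5 in Control, TIMP sums overlap, and the ratio lies above 4 in each MCH library and below 3.5 in each Control library.

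Of 11 tested ADAMs, 1 fell, or 9.09%, where 5.4% of all tested genes were lower, so the count is near that share. The gene was Adam19, a membrane protease that can shed neuregulin. It was measured at 63.2, 59.4 and 60.2 CPM with MCH against 75.0, 92.3 and 88.2 CPM in Control, and fell by 0.48 ± 0.09 log2 units (adjusted p = 0.0187). The MCH libraries were close together and below every Control library. It did not pass when replicate 2 or 3 of either group was left out (highest adjusted p = 0.0810). Of its exon bases, 8.25% and 6.75% also belong to 2 annotated antisense genes. None of the 11 was higher by edgeR, DESeq2 or limma-voom, also at an unadjusted p under 0.05.

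The other broadly acting sheddases did not pass. Adam9 stood at 203, 154 and 171 CPM with MCH against 159, 191 and 183 CPM in Control, and Adam15 at 233, 227 and 231 CPM with MCH against 217, 197 and 236 CPM in Control. In both genes the groups overlapped (-0.01 ± 0.11, adjusted p = 0.957; 0.09 ± 0.07, adjusted p = 0.486). Adam17, the enzyme that releases TNF and EGF receptor ligands, was also without separation (0.08 ± 0.10, adjusted p = 0.641). Adam10, which cleaves Notch receptors and the amyloid precursor protein, differed widely within groups: 88.3, 52.4 and 82.2 CPM with MCH against 67.8, 24.0 and 82.6 CPM in Control. Replicate 2 was the lowest library in each group, and the fitted difference was smaller than its error (0.35 ± 0.52, adjusted p = 0.718). Adam12, a protease of mesenchymal and muscle precursors, was lower in every MCH library but missed the threshold (-0.32 ± 0.10, adjusted p = 0.0909). Adam8, mostly known from myeloid cells and osteoclasts, overlapped (0.08 ± 0.13, adjusted p = 0.722). Adam11, an adhesion protein without protease activity, was lower in every MCH library and did not pass (-0.61 ± 0.25, adjusted p = 0.173). Adam1a, Adam3 and Adam32, known from testis and sperm, had 7 to 60 counts per library and did not pass. Adam1a shares 63.7% of its exon bases with Gm42878 on the same strand, so its value is uncertain. Adam5 had a mean of 10.3 counts but did not pass the filter, at 4 to 9 counts per MCH library and 5 to 24 per Control library, and Adam4, Adam21, Adam23, Adam28, Adam30 and Adam33 had at most 11 counts in any library.

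Of 5 tested ADAMTS genes that cut proteoglycans, 1 rose and 2 fell. Adamts5, the main aggrecan-cleaving enzyme of mouse cartilage, stood at 46.3, 52.6 and 61.4 CPM in MCH replicates 1 to 3 and 25.4, 30.7 and 23.6 CPM in Control replicates 1 to 3. Every MCH library lay above every Control library, and Adamts5 rose by 1.01 ± 0.14 log2 units (adjusted p = 0.00595), a call kept in all 6 fits with 1 library left out. Its share of summed ADAMTS FPKM was 15.0% with MCH and 6.44% in Control. Adamts4, the other classical aggrecanase, moved the other way: 16.9, 14.1 and 12.4 CPM with MCH against 20.8, 24.3 and 25.7 CPM in Control. Adamts4 fell by 0.71 ± 0.14 log2 units (adjusted p = 0.0240), and did not pass when replicate 2 or 3 of either group was left out (highest adjusted p = 0.0960). Adamts15, a versican- and aggrecan-cleaving enzyme, rested on 16 to 30 counts per MCH library and 47 to 73 per Control library, or 1.76, 0.959 and 0.928 CPM with MCH against 2.95, 3.82 and 2.73 CPM in Control, with no overlap. It fell by 1.38 ± 0.30 log2 units (adjusted p = 0.0310), and of the 6 fits that leave out a library only that without MCH replicate 1 still passed (highest adjusted p = 0.113, without MCH replicate 3). Adamts1, the ADAMTS gene with the highest mean FPKM, stood at 102, 70.9 and 82.4 CPM with MCH against 83.9, 101 and 95.5 CPM in Control and did not pass (-0.14 ± 0.14, adjusted p = 0.563). It lies on chromosome 16 at 85793827-85803113, next to Adamts5 at 85858170-85901125, with 55056 bases and no other gene of the table between them. Adamts9 did not pass (-0.02 ± 0.13, adjusted p = 0.951), and Adamts8 had 1 to 9 counts per library.

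Of the procollagen N-propeptidases, which trim fibrillar procollagens before they assemble, Adamts2 was the most abundant. All its MCH libraries were below all Control libraries, by a small step that did not pass (-0.15 ± 0.07, adjusted p = 0.217). Adamts3 fell by 1.79 ± 0.39 log2 units (adjusted p = 0.0303), from 18 to 25 counts per library in Control to 5 to 9 with MCH. In scaled units this was 0.293, 0.508 and 0.290 CPM with MCH against 1.54, 0.942 and 1.39 CPM in Control. It passed the low-count filter through the Control libraries, and its call was lost in each of the 6 fits with 1 library left out (adjusted p between 0.0534 and 0.111). Adamts14 did not differ in a way the test could call (0.02 ± 0.15, adjusted p = 0.946).

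Adamts7, one of the enzymes that cut cartilage oligomeric matrix protein, stood at 26.3, 28.3 and 25.8 CPM in MCH replicates 1 to 3 and 51.3, 54.4 and 51.9 CPM in Control replicates 1 to 3. Adamts7 fell by 0.97 ± 0.08 log2 units (adjusted p = 0.000656), a level 1.96-fold lower. Adamts10, which binds fibrillin microfibrils, stood at 34.3, 33.5 and 34.2 CPM in MCH replicates 1 to 3 and 57.0, 56.5 and 59.7 CPM in Control replicates 1 to 3. Adamts10 fell by 0.76 ± 0.07 log2 units (adjusted p = 0.00111). In both genes the groups were far apart against a spread of a few CPM, and both calls were kept in all 6 fits with 1 library left out. Adamts12, the other enzyme with that cartilage substrate, was low at 5 to 32 counts and did not pass (-0.62 ± 0.54, adjusted p = 0.512). Adamts6 (-0.92 ± 0.31, adjusted p = 0.110) and Adamts16 (-1.75 ± 0.47, adjusted p = 0.0568) did not pass either. Without MCH replicate 1, Adamts6 passed (-1.25, adjusted p = 0.0388). Adamts16 reached 4 to 8 counts per MCH library and 15 to 27 per Control library, so it too was tested because of the Control libraries. Adamts13 and Adamts17 had at most 6 counts in any library.

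The ADAMTS-like proteins lack the protease domain, and several bind fibrillin. Adamtsl5 overlapped between groups (-0.07 ± 0.08, adjusted p = 0.630). Adamtsl4 (-0.34 ± 0.12, adjusted p = 0.123) and Adamtsl3 (-0.96 ± 0.36, adjusted p = 0.135) had all MCH libraries below all Control libraries and did not pass. Without MCH replicate 1, Adamtsl3 passed (-1.41, adjusted p = 0.0358). Adamtsl1 overlapped (-0.59 ± 0.50, adjusted p = 0.493), and Adamtsl2 had 0 to 2 counts.

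Genes that act on or with these enzymes were taken from 3 lists. The lists were chosen with earlier results of these data known, so their counts are descriptions beside the shares over all genes. Over all tested genes, 5.4% were lower and 3.64% were higher, with a median of 0.00211. Of 23 tested genes of MMP activation, inhibition and clearance, 7 fell and 1 rose, with a list median of -0.11. A rise of 1 in 23 is near the share over all genes. Lrp1, the receptor that clears MMPs and TIMPs from the cell surface, went from 1571 ± 138 CPM in Control to 799 ± 86.2 CPM with MCH (SD, n = 3; log2 fold change -0.98 ± 0.10, adjusted p = 0.00236). Serpine2, an inhibitor of thrombin and plasminogen activators, changed by -0.62 ± 0.05, and Bmp1, the procollagen C-propeptidase, by -0.57 ± 0.05. Furin, which activates membrane-type MMPs, ADAMs and ADAMTS enzymes, changed by -0.48 ± 0.10 (adjusted p = 0.0244). The integrin gene Itgb3 (-0.77 ± 0.14) and the lysosomal proteases Ctsl (-0.35 ± 0.06) and Ctsb (-0.31 ± 0.07) fell too. The rise was in A2m, a protease trap, from 1.48 to 2.58 CPM (0.80 ± 0.19, adjusted p = 0.0443). No gene of this list was higher with limma-voom, or without MCH replicate 2, MCH replicate 3 or any 1 Control replicate. Reck, a membrane inhibitor of MMPs, and the urokinase gene Plau did not pass (-0.03 ± 0.16 and 0.03 ± 0.10).

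Of 24 tested partners and substrates of ADAM10 and ADAM17, 7 fell and none rose by edgeR, with 1 higher at an unadjusted p under 0.05 and none by DESeq2 or limma-voom after adjustment. The list median was -0.31, where 5.4% of all tested genes were lower and 3.64% were higher. Those that fell were Tnfsf11, the osteoclast-inducing ligand RANKL (-2.32 ± 0.28), the EGF receptor ligand Ereg (-0.49 ± 0.06), Il6ra (-0.51 ± 0.08), the TNF receptors Tnfrsf1a (-0.31 ± 0.05) and Tnfrsf1b (-0.31 ± 0.06), Frmd8, which stabilises the ADAM17 complex (-0.40 ± 0.07), and Notch3 (-0.82 ± 0.19). Of 11 tested ADAMTS substrates and cofactors, 6 fell and none rose by any of the 3 tools, with 1 higher at an unadjusted p under 0.05 by each, and a median of -0.43. They were Col3a1 (-0.99 ± 0.08), Col1a2 (-0.52 ± 0.08), Col1a1 (-0.44 ± 0.08), Vcan, the large proteoglycan versican (-0.52 ± 0.10), Acan, which encodes aggrecan (-0.69 ± 0.15), and Fn1, fibronectin (-0.43 ± 0.09). Of these, Col1a1, Col1a2 and Acan are also among the stromal and chondrocyte marker genes given above. The counts of 7, 7 and 6 falls were 3, 2 and 1 without MCH replicate 3, 4, 3 and 2 without MCH replicate 2, 4, 3 and 2 without Control replicate 2, and for the last 2 lists 3 and 2 without Control replicate 3.

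Calls of members, like those of all genes, depended on single libraries. Of the 15 calls, 5 were kept in all 6 fits with 1 library left out (Mmp2, Mmp19, Adamts5, Adamts7 and Adamts10), 9 in 1 to 4 of them and 1 in none. The 14 falls became 5 when MCH replicate 3 or Control replicate 2 or 3 was left out, and 8 when MCH replicate 2 was. They numbered 11 without Control replicate 1 and 14 without MCH replicate 1. Falls over all genes also dropped, from 738 to 266, 305 and 307 in the fits with 5 and to 350 in that with 8. All 15 kept their direction under all 14 alternative settings tried. Without strand information, reads of these members also cannot be told from those of opposite-strand genes that share exon bases: Adam15 (20.6%), Mmp24 (13.6%), Mmp28 (12.03%), Mmp11 (5.58%), Adamts4 (3.56%), Mmp12 (2.17%) and Adamts7 (1.94%).

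**Figure D5:**
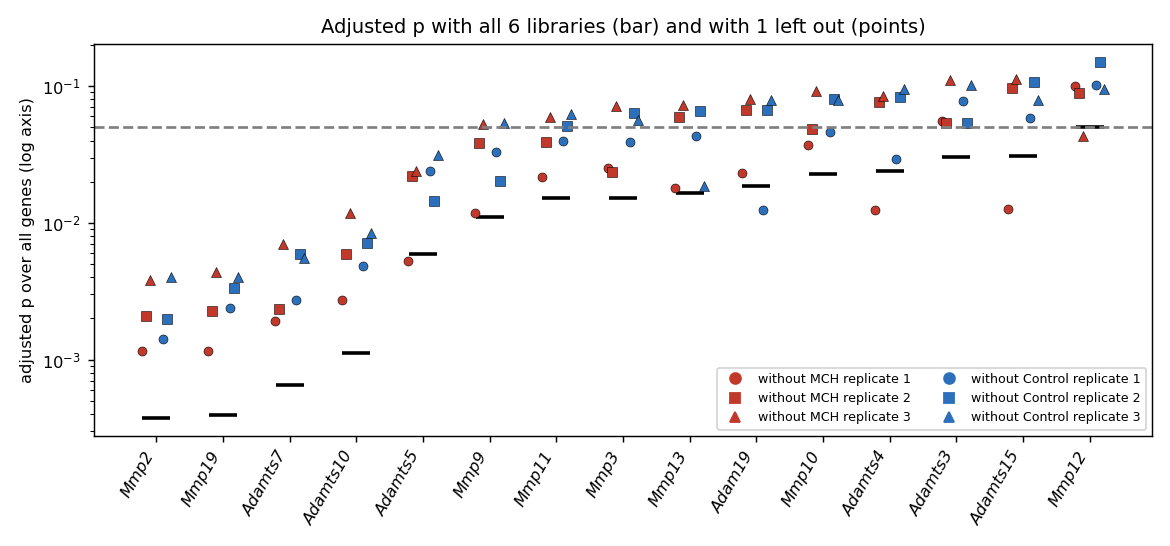
Adjusted p over all genes (log axis) of the 15 members past the threshold, with all 6 libraries (black bar) and with 1 library left out (points, coloured by group and shaped by replicate); the dashed line is 0.05. Mmp2, Mmp19, Adamts7, Adamts10 and Adamts5 stay below the line in every fit, and Mmp12 lies at it with all libraries.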

How the data were processed

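RNA of 6 samples (3 MCH, 3 Control) was analysed from 1 deposited table that gives each gene's read counts as whole numbers and its FPKM, per the file headers. The submitters' processing notes name GRCm38 and mm10 as the build; aligner, counting tool, annotation and strand setting were not given in the sources used here. Columns of the authors' own comparison were not used.

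Tests ran on the deposited counts in edgeR 4.0.16 (R 4.3.3), using TMM factors, the default filterByExpr and robust quasi-likelihood estimation with group as sole term. P-values were adjusted by Benjamini and Hochberg's method across 13662 genes, 5691 being filtered. Each SE equals the coefficient's size over the root of its F value. The authors' deposited FPKM served only to compare levels between genes and for family sums. Exon overlaps come from the GENCODE annotation of GRCm38. Values by library are given for members past the threshold, every Timp gene and the 10 members highest in mean FPKM; those of Adam10 and Mmp28 were added after their values were seen; of the other lists, up to 8 genes past the threshold are named. Steps were tested on simulated counts, and with gene-specific spread false calls can run above the nominal rate. The adjusted p-values given here may therefore be too low.

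The members and lists were chosen with earlier results of these data known. Alternatives were other scalings (RLE, upper quartile), DESeq2 1.42.0, voom from limma 3.58.1, other low-count filters, removing the trend on gene length, blocking on replicate number, and fits lacking 1 library. FPKM were not tested, so no pseudocount was varied.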

Additional observations from a re-analysis of the deposited data

How the results depend on the processing

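Of 62 members, 16 were too low to test at this depth. Without a low-count filter 2 members were higher, Adamts5 and Adam18. With 1 library left out, the members lower ran from 5 to 14 and those higher stayed at 1. The 14 without MCH replicate 1 lack Adamts3 and Mmp12 and include Adamts6 and Adamtsl3. All genes higher ran from 65 to 718 and all genes lower from 266 to 871. The falls in the lists of MMP activation, ADAM10 and ADAM17 partners and ADAMTS substrates ran from 3 to 6, 2 to 8 and 1 to 7, and the rises in the first from 0 to 1.

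DESeq2 gave Adamts3 no adjusted p and called Mmp28 lower. All genes higher numbered 800 with DESeq2 and 937 with the length trend removed, which put the median of all genes at 0.0453. The rises in the list of MMP activation were 0 with limma-voom and without a filter, and 2 with the length trend removed, where 1 ADAM10 and ADAM17 partner was also higher. The log2 ratio of summed MMP levels was -0.48 from CPM and -0.56 from FPKM.

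The groups share replicate numbers, but over all tested genes same-numbered samples did not deviate together (correlations of -0.161, -0.0386 and -0.0138 for numbers 1, 2 and 3). A pairing that touches only some genes would not show in these values, so whether the numbers pair the samples is not known. With the replicate number as a block, 1 member was higher and 5 were lower, of 28 and 151 genes in all, and the 3 lists had 3, 1 and 1 falls and 0 rises. The signs of 8 members that did not pass changed under at least 1 setting: Adam8, Adam9, Adam10, Adam17, Adamts9, Adamts14, Adamtsl5 and Timp3.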

Other observations

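Adam18, a gene known from testis, had 7, 8 and 6 counts in MCH replicates 1 to 3 and 0 in each Control library, too few to pass the filter on low counts. Over each group this is 21 counts against 0, a ratio of 7.08 when Control is set to a floor of 3 counts over the group. The ratio allows for no error in the MCH counts. Without a filter Adam18 passed the threshold (edgeR adjusted p = 0.0363), but with 0 counts in Control its fitted fold change had no usable SE. Its neighbours on chromosome 8, Adam3, Adam5, Adam32 and Adam9, were not past the threshold in that setting. In the main setting Adam5 was not tested, and Adam3, Adam32 and Adam9 did not pass. This gene was chosen after its values were seen.

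Adam10 had a coefficient of variation of 52.4% among the Control libraries, above that of 98.0% of the 10489 genes averaging 100 counts or more. Among the MCH libraries it was 25.8%, above that of 92.7% of them.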
